A study of Mus musculus with 12 samples.

Results

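The enzymes that cut the matrix around skeletal muscle stem cells, and the inhibitors that hold those enzymes in check, were followed through RNA-seq libraries of mouse satellite cells. The set was taken by gene symbol and gene type alone and holds 84 protein-coding genes of the 55401 genes in the count table. It comprises 22 matrix metalloproteinases (MMPs), 4 tissue inhibitors of metalloproteinases (TIMPs), 34 ADAMs, 19 ADAMTS proteases and 5 ADAMTS-like proteins. *Mmp1a* carries the gene type of a polymorphic pseudogene and is not among them. Counts were high enough for a test in 72 of the 84 genes. The 12 genes without a test were *Adam6a*, *Adam18*, *Adam20*, *Adam24*, *Adam26a*, *Adam26b*, *Adam34l*, *Adam39*, *Mmp1b*, *Mmp7*, *Mmp8* and *Mmp20*.

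Satellite cells were sorted from the hind limbs by the Pax7-ZsGreen reporter, after the muscle had been digested with collagenase and dispase. Every mouse carried CXCR4 FL/FL, in which the gene of the chemokine receptor CXCR4 is flanked by loxP sites, together with Pax7-ZsGreen, and every mouse received tamoxifen at 80 mg/kg on 5 days. KO mice also carried Pax7-creERT2, a tamoxifen-activated recombinase expressed from *Pax7* and therefore limited to satellite cells and their progeny, and WT mice had no cre. The mice were adults of 3 to 4 months. Freshly sorted cells are called quiescent (4 WT and 4 KO libraries) and cells kept in culture overnight are called activated (2 WT and 2 KO libraries). The labels do not say whether libraries of a group came from separate mice, so the p-values measure the spread between libraries, which may be technical in part.

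MMPs and ADAMTS proteases are secreted or membrane-bound zinc enzymes that cut collagens, laminins and proteoglycans, while ADAMs mainly release the outer parts of membrane proteins such as growth factors and Notch receptors. TIMPs bind the active site of these enzymes and block it, and TIMP3 differs from its relatives in that it also blocks several ADAM and ADAMTS proteases. In muscle a quiescent satellite cell lies under the basal lamina of the fibre, and remodelling of this matrix accompanies its exit from quiescence and its migration.

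Quiescent libraries held 12775593 to 23717013 counts and activated libraries 3172164 to 5427280. The ribosomal RNA gene CT010467.1 alone accounted for 12.6% and 40.3% of activated WT replicates 1 and 2 and for 11.4% and 28.8% of activated KO replicates 1 and 2, and for under 1% of each quiescent library. Levels are in CPM, the count of a gene relative to the depth of its library as adjusted by edgeR's TMM method. *Cxcr4* was at 61.2, 59.1, 89.6 and 112 CPM in quiescent WT libraries and at 17.6, 21.2, 12.5 and 17.1 CPM in quiescent KO libraries, and in activated libraries at 33.3 and 14.5 CPM in WT and 5.39 and 13.7 CPM in KO. The genotypes did not overlap in either state, but activated WT replicate 2 and KO replicate 2 were close, at 14.5 and 13.7 CPM. Of all genes tested, 0.827% in quiescent and 9.5% in activated cells were lower in KO without overlap. The log2 fold change of KO against WT was -2.24 (edgeR adjusted p = 0.00477) in quiescent cells. In activated cells it was -1.35 (edgeR adjusted p = 0.381). *Pax7* was detected in each library, at 181 to 482 CPM in quiescent and 71.2 to 130 CPM in activated cells. Summed markers of fibroadipogenic progenitors, the fibroblast-like cells of muscle, were at 760 to 3536 CPM in quiescent and 326 to 787 CPM in activated libraries. Of that list, *Col3a1*, *Ly6a* and *Gsn* were lower in culture in both genotypes at an edgeR adjusted p under 0.05, and *Col1a1*, *Dcn* and *Lum* did not reach it. *Pdgfra* was not lower, with log2 fold changes of 0.76 in WT (edgeR adjusted p = 0.21) and 2.04 in KO (edgeR adjusted p = 0.00125). Summed markers of endothelium were at 220 to 967 CPM in quiescent and 88.0 to 627 CPM in activated libraries. Summed muscle fibre markers were at 215 to 776 CPM in quiescent and 5426 to 13430 CPM in activated libraries. *Xist* was at 1.20 to 7.17 CPM in quiescent and 451 to 817 CPM in activated libraries, so that the sex of the mice and the state of the cells cannot be told apart. In these bulk samples, fewer cells of a type and less RNA per cell cannot be told apart either.

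In the quiescent libraries the most abundant of these transcripts were those of 2 ADAMTS proteoglycanases and of *Timp2*. Per length, on the authors' FPKM scale with 1 value per group, *Adamts1* was first with 246 in WT and 203 in KO. *Adamts4* had 141 and 161, and *Timp2* had 133 and 124. ADAMTS1 and ADAMTS4 both cut the large proteoglycans versican and aggrecan, and TIMP2 inhibits MMPs and also takes part in the activation of MMP2. The FPKM of all 84 genes summed to 811 in quiescent WT, of which the ADAMTS proteases made up 457 and the TIMPs 189. In activated WT the sum was 201, with 47.9 from the ADAMTS proteases and 55.0 from the TIMPs. The sum of the ADAMs was 52.4 in quiescent and 46.2 in activated WT, and 53.9 and 41.6 in KO.

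**Figure D1:**
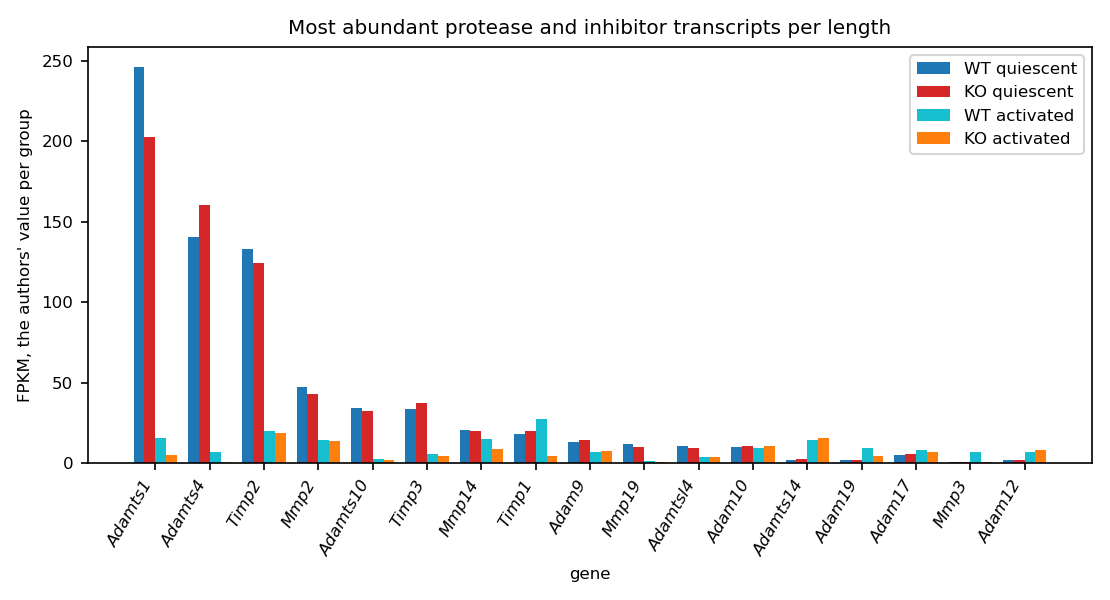
Authors' FPKM values (vertical axis) of the genes that rank in the top 10 of any group, and of *Adamtsl4*, which ranks 11 in quiescent WT. Each group has 1 bar, with no error because the values are pooled per group. *Adamts1*, *Adamts4* and *Timp2* stand highest in both quiescent groups, and their activated bars are between 0.453 and 20.2.

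The first comparison asked how the expression of these genes differs between freshly sorted and cultured cells. In WT, 28 of the 72 tested genes were lower in activated cells (38.9%, against 16.5% of all 25771 genes tested) and 6 were higher (8.33%, against 9.65%). In KO, 28 were lower (38.9%, against 18.5%) and 2 were higher (2.78%, against 11.1%). A gene counted as changed at an adjusted p under 0.05, a log2 fold change over 1 in either direction and a mean normalized count over 10, in edgeR's quasi-likelihood test with Benjamini-Hochberg adjustment over all genes. There were 23 genes lower and 2 higher in both genotypes, and the matching share of all genes was not computed. All libraries of one state lay below those of the other for 41 members lower in culture in each genotype (56.9%, against 38.4% of all genes in WT and 36.1% in KO) and for 6 higher in each (8.33%, against 17.6% and 18.3%). The median log2 fold change of the tested members was -1.60 in WT and -2.16 in KO, beside -0.92 and -0.96 over all genes tested. Because 16 members in WT and 17 in KO had no count in either activated library, the medians were also computed with those genes at the bound that 3 counts over the group allow, which gave -1.22 and -1.40. The medians over all genes were not bounded in this way, so the bounded values have no counterpart among all genes. Of the 28 genes called lower, 7 in WT and 6 in KO had no count in either activated library of that genotype. The medians as fitted rested in part on single libraries, since the WT median was -3.0 without WT activated replicate 1, below the KO median of -2.18 in that fit, and the KO median was -2.78 without KO activated replicate 2. Leaving out WT activated replicate 1 or 2 left 18 or 16 genes lower in WT, and leaving out KO activated replicate 1 left 18 lower in KO.

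**Figure D2:**
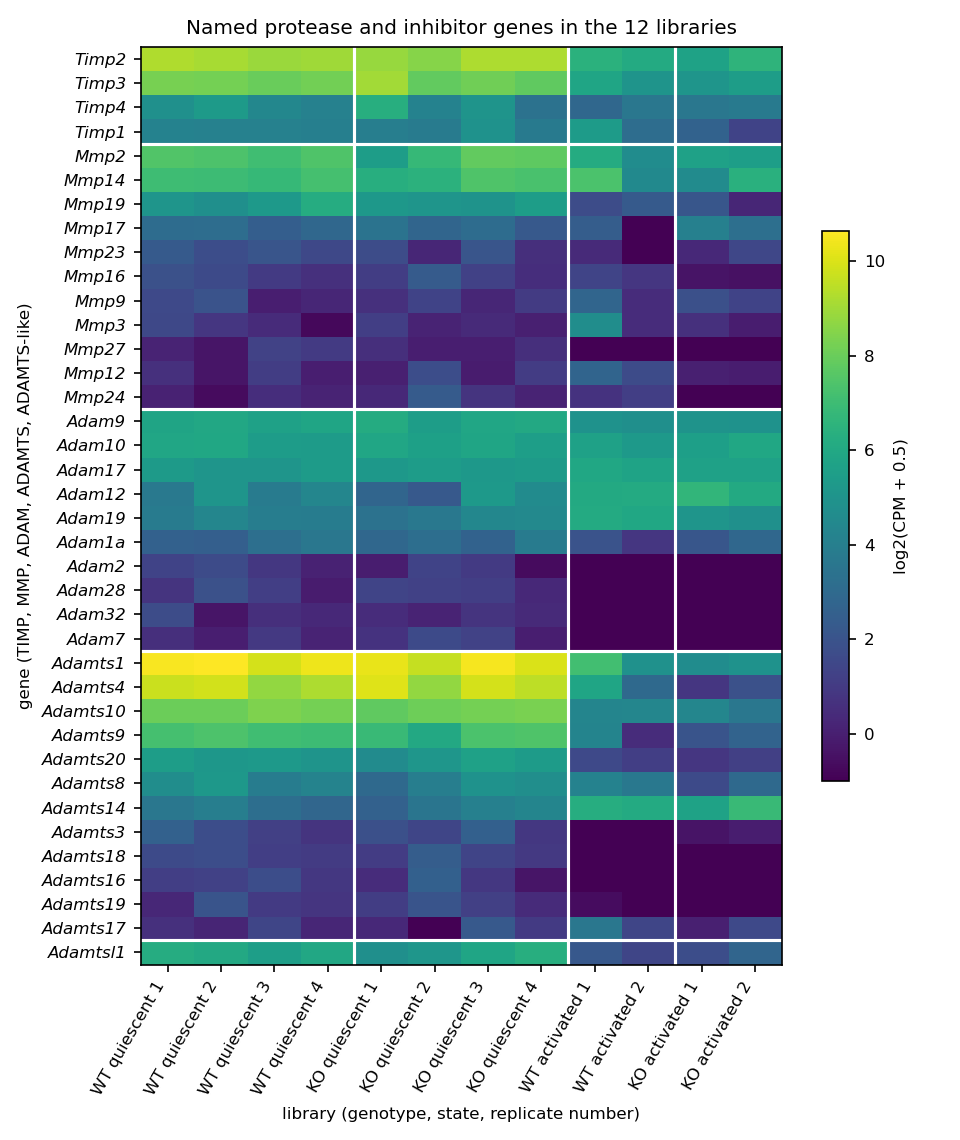
Levels of 38 named genes as log2(CPM + 0.5) (colour) in each of the 12 libraries (columns), grouped by family from TIMPs at the top to ADAMTS-like at the bottom. *Adamts1* and *Adamts4* are brightest in the quiescent libraries, *Adamts14* and *Adam12* are brighter in the activated ones, and ADAM10 and ADAM17 transcripts show little contrast between the states.

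Among the inhibitors, *Timp2* and *Timp3* fell in culture in both genotypes. *Timp2* (chromosome 11, 118301069 to 118355740, GRCm38) was at 603, 555, 469 and 504 CPM in quiescent WT and at 458, 369, 585 and 591 CPM in quiescent KO. It was at 85.0 and 69.6 CPM in activated WT and at 51.4 and 95.8 CPM in activated KO. The quiescent and activated libraries did not overlap, and the log2 fold change was -2.78 (standard error 0.32, edgeR adjusted p = 2.62e-06) in WT and -2.76 (standard error 0.32, edgeR adjusted p = 2.37e-06) in KO. *Timp3* (chromosome 10, 86300372 to 86349506), the inhibitor that binds to matrix, was at 304, 295, 250 and 283 CPM in quiescent WT and at 521, 227, 275 and 224 CPM in quiescent KO. In activated libraries it was at 56.2 and 32.4 CPM in WT and at 32.9 and 44.0 CPM in KO, again below each quiescent library. The log2 fold changes were -2.66 and -3.02 (edgeR adjusted p = 2.07e-05 and 5.6e-06). Of the exon bases of *Timp3*, 21.3% also lie in exons of *Syn3* on the opposite strand, and the strand setting of the authors' counting is not given in the sources used here.

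*Timp1*, an inhibitor with growth-promoting activity, took another course in the single libraries. It lies on chromosome X from 20870166 to 20874735. Its quiescent levels were 17.6, 16.8, 16.8 and 15.7 CPM in WT and 15.3, 14.0, 30.0 and 13.3 CPM in KO. Activated levels were 41.2 and 8.32 CPM in WT and 5.91 and 2.05 CPM in KO. Activated WT replicate 1 was above, and the other 3 activated libraries below, each quiescent library. *Timp1* was lower in activated KO cells (log2 fold change -2.2, standard error 0.56, edgeR adjusted p = 0.00521) and did not pass in WT (0.62, standard error 0.46, edgeR adjusted p = 0.293). The KO call was lost without KO activated replicate 2 (adjusted p = 0.1). *Timp4* did not pass in either genotype, with 16.6 to 40.7 CPM in quiescent and 6.86 and 11.8 CPM in activated WT (log2 fold change -1.56, edgeR adjusted p = 0.0686) and -1.47 in KO (edgeR adjusted p = 0.0667).

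The ADAMTS proteoglycanases, *Adamts1*, *Adamts4*, *Adamts5*, *Adamts8*, *Adamts9*, *Adamts15* and *Adamts20*, held the most abundant transcripts and the deepest falls with counts left to measure. In WT 6 of these 7 genes were lower in culture, all but *Adamts8*, and in KO 7 of 7 were. Of all genes tested, 16.5% were lower in WT and 18.5% in KO. *Adamts1* (chromosome 16, 85793827 to 85803113) was at 1500, 1602, 964 and 1310 CPM in quiescent WT and at 1228, 790, 1424 and 1000 CPM in quiescent KO. In activated cells it was at 140 and 28.9 CPM in WT and at 24.7 and 29.9 CPM in KO. Each activated library was below each quiescent one, and activated WT replicate 1 lay well above the other 3. The fall was 15.7-fold in WT (log2 fold change -3.97, standard error 0.50, edgeR adjusted p = 6.36e-06) and 40.7-fold in KO (-5.35, standard error 0.55, edgeR adjusted p = 5.24e-07). Without WT activated replicate 1 the WT log2 fold change was -5.46, close to that in KO, and without replicate 2 it was -3.21.

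*Adamts4* (chromosome 1, 171250421 to 171260637) was at 834, 926, 432 and 589 CPM in quiescent WT and at 1086, 431, 965 and 720 CPM in quiescent KO. It was at 57.2 and 7.44 CPM in activated WT and at 1.28 and 3.19 CPM in activated KO, the last 2 values resting on 5 and 14 counts. No activated library reached the quiescent range, and both KO libraries lay below both WT libraries. The log2 fold change was -4.37 (standard error 0.62, edgeR adjusted p = 2.57e-05) in WT and -8.46 (standard error 0.81, edgeR adjusted p = 2.49e-07) in KO. Without WT activated replicate 1 the WT value was -6.47, and without replicate 2 it was -3.54.

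In the order of the replicates, summed endothelial markers were at 944, 952, 400 and 466 CPM in quiescent WT and at 952, 363, 967 and 220 CPM in quiescent KO. Summed smooth muscle and pericyte markers were at 1475, 1715, 580 and 768 CPM in quiescent WT and at 1171, 705, 1727 and 440 CPM in quiescent KO. In *Adamts1*, *Adamts4* and both sums, WT replicates 1 and 2 were above WT replicates 3 and 4, and KO replicates 1 and 3 were above KO replicates 2 and 4. In culture the smooth muscle and pericyte sums were at 318 and 222 CPM in WT and at 169 and 262 CPM in KO, below each quiescent library, and the part of such cells in the levels and falls of *Adamts1* and *Adamts4* was not tested.

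*Adamts9*, which also cuts versican and aggrecan, was at 125 to 168 CPM in quiescent WT and at 18.5 and 0.876 CPM in activated WT, a log2 fold change of -3.73 (edgeR adjusted p = 8.37e-05) that became -7.27 without replicate 1 and -2.90 without replicate 2. In KO it was at 64.0 to 171 CPM and then at 3.60 and 5.93 CPM, a log2 fold change of -4.74 (edgeR adjusted p = 1.51e-05). *Adamts20* went from 31.9 to 44.7 CPM in quiescent WT to 2.45 and 1.75 CPM in activated WT, and from 24.1 to 49.6 CPM in quiescent KO to 1.28 and 1.83 CPM. Both genes had non-overlapping states in both genotypes, and the log2 fold changes of *Adamts20* were -4.08 and -4.56 (edgeR adjusted p = 5.68e-07 and 1.97e-07). *Adamts8* was at 14.2 to 36.3 CPM in quiescent WT and at 17.5 and 12.3 CPM in activated WT, within and just below that range (log2 fold change -0.64, edgeR adjusted p = 0.322). In activated KO it was at 2.57 and 7.30 CPM, a log2 fold change of -2.0 (edgeR adjusted p = 0.0102), which was lost without KO activated replicate 1 (adjusted p = 0.145).

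Other ADAMTS proteases were 5 lower of 9 in each genotype, against 16.5% of all genes in WT and 18.5% in KO. *Adamts10*, which binds fibrillin microfibrils, had the smallest adjusted p of all members in both genotypes. It was at 257, 261, 339 and 300 CPM in quiescent WT and at 221, 270, 299 and 319 CPM in quiescent KO. It was at 19.0 and 19.7 CPM in activated WT and at 19.8 and 11.9 CPM in activated KO. All 4 activated libraries were close together and far below the quiescent ones, and the log2 fold changes were -3.91 (standard error 0.32, edgeR adjusted p = 5.61e-08) and -4.13 (standard error 0.32, edgeR adjusted p = 2.79e-08). *Adamts16*, *Adamts18* and *Adamts19* were low in quiescent cells, with means of 1.76 to 2.53 CPM, and had no count in activated KO. *Adamts16* and *Adamts18* had no count in activated WT either and were at least 5.44-fold and 6.14-fold lower there, taking 3 counts over both libraries as the floor. Of the WT and KO calls of these 3 genes, all but that of *Adamts18* in KO were lost without at least 1 of the activated libraries (adjusted p up to 0.215). *Adamts17* was higher in activated WT (11.9 and 2.19 CPM, log2 fold change 2.66, edgeR adjusted p = 0.0465) and at 0.514 and 2.51 CPM in activated KO (-0.10, edgeR adjusted p = 0.949). Replicate 2 lay within the quiescent WT range of 0.639 to 2.19 CPM, and without replicate 1 the log2 fold change was 1.01 (edgeR adjusted p = 0.663). The ADAMTS-like proteins lack the protease domain. In each genotype 2 of 5 were lower, against the same shares of all genes. One of these was *Adamtsl1*, at 45.9 to 74.3 CPM in quiescent WT and 4.08 and 2.19 CPM in activated WT (log2 fold change -4.19, edgeR adjusted p = 3.71e-06), whose log2 fold change in KO was -3.40 (edgeR adjusted p = 1.67e-05).

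Against this direction, the procollagen N-proteinase *Adamts14*, which trims the amino end of fibrillar procollagen, rose in culture. *Adamts14* (chromosome 10, 61197112 to 61273438) was at 11.8, 15.5, 8.82 and 6.79 CPM in quiescent WT and at 5.63, 11.1, 16.3 and 18.9 CPM in quiescent KO. It reached 75.2 and 68.3 CPM in activated WT and 51.4 and 117 CPM in activated KO. Each activated library was above each quiescent one, with log2 fold changes of 2.74 (standard error 0.40, edgeR adjusted p = 3.04e-05) and 2.7 (standard error 0.40, edgeR adjusted p = 2.96e-05). On the FPKM scale it ranked 25 among the members in quiescent and 6 in activated WT, and 22 in quiescent and 2 in activated KO. *Adamts3*, another enzyme of this group, fell from a mean of 2.88 CPM in quiescent WT to no count, at least 8.08-fold lower, and from 3.04 CPM in quiescent KO to 0.257 and 0.456 CPM, which rest on 1 and 2 counts (log2 fold change -3.05, edgeR adjusted p = 0.0278). Its WT call was lost without WT activated replicate 1 (adjusted p = 0.0787) and its KO call without either KO activated library or KO quiescent replicate 3 (adjusted p up to 0.195).

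**Figure D3:**
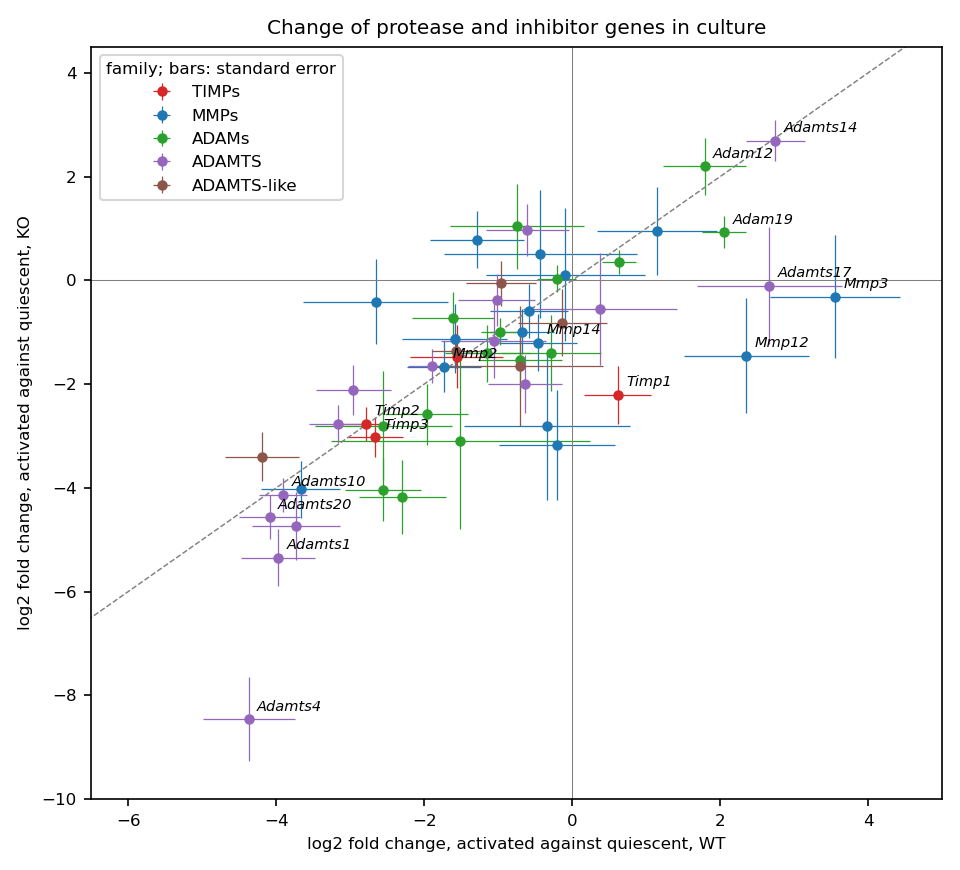
Log2 fold change of activated against quiescent cells in WT (horizontal axis) and KO (vertical axis) for the 54 tested genes with at least 1 count in both activated groups, with standard errors as bars and colours for families. The dashed line marks equal changes, on which *Timp2*, *Mmp2* and *Adamts14* nearly lie, and *Adamts4* (-4.37 and -8.46) and *Timp1* (0.62 and -2.2) lie below it.

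Of the 26 ADAMs tested, 2 were higher and 8 lower in WT and 1 was higher and 6 lower in KO. Of all genes tested, 9.65% were higher and 16.5% lower in WT, and 11.1% higher and 18.5% lower in KO. Whether ADAMs differ from all genes in this was not tested. The sheddases *Adam10* and *Adam17*, which process Notch receptors and release growth factors, did not pass in either genotype. *Adam10* was at 59.0, 60.7, 42.1 and 41.4 CPM in quiescent WT and at 49.5 and 38.1 CPM in activated WT. In KO it was at 59.6, 48.6, 56.8 and 45.2 CPM and at 46.8 and 60.5 CPM, and the states overlapped in both genotypes (log2 fold changes -0.21 and 0.03, standard errors 0.26 and 0.26). *Adam17* was at 32.7 to 41.5 CPM in quiescent WT and at 60.3 and 53.9 CPM in activated WT, and at 36.7 to 43.0 CPM and 50.3 and 49.7 CPM in KO. Its activated libraries were all higher, but the log2 fold changes of 0.63 and 0.35 (edgeR adjusted p = 0.0443 and 0.228) stayed under the limit of 1. *Adam9*, another sheddase, was at 49.6 to 62.4 CPM and at 29.7 and 27.1 CPM in WT, with log2 fold changes of -0.97 and -0.99 just inside that limit (edgeR adjusted p = 0.00837 and 0.00646).

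The meltrins *Adam12* and *Adam19*, metalloproteinases known from fusing myoblasts, were the ADAMs that rose. *Adam12* was at 12.7, 32.8, 13.7 and 19.9 CPM in quiescent WT and at 6.52, 4.24, 38.5 and 24.3 CPM in quiescent KO. It was at 67.3 and 69.6 CPM in activated WT and at 102 and 67.3 CPM in activated KO. Each activated library was above each quiescent one (log2 fold changes 1.79 and 2.2, standard errors 0.56 and 0.56, edgeR adjusted p = 0.0208 and 0.00484), and with edgeR's robust fit the adjusted p was 0.116 in WT and 0.0577 in KO. The WT call was also lost without WT activated replicate 2 and without WT quiescent replicate 1 or 3 (adjusted p up to 0.0582 in these). *Adam19* (chromosome 11, 46055992 to 46147343) was at 13.7, 20.01, 14.7 and 14.2 CPM in quiescent WT and at 10.0, 12.2, 20.4 and 21.6 CPM in quiescent KO. It was at 68.3 and 61.3 CPM in activated WT and at 33.6 and 27.8 CPM in activated KO. Activated libraries of both genotypes were above the quiescent ones, by a log2 fold change equal to 2.05 (standard error 0.30, edgeR adjusted p = 3.37e-05) in WT and 0.93 (standard error 0.31, edgeR adjusted p = 0.0256) in KO, the latter under the limit of 1. The antisense genes *Gm16033* and *Gm16034* share 8.3% and 6.7% of its exon bases.

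Several ADAMs, some of which are best known from the male reproductive tract, were at the edge of detection. *Adam2*, a sperm surface protein, was at 0.578 to 2.62 CPM in quiescent WT, and *Adam7*, *Adam28* and *Adam32* had quiescent means of 0.867 to 1.65 CPM. None of these 4 genes had a count in an activated library. *Adam28* passed in both genotypes and was at least 4.61-fold lower in WT and 4.49-fold lower in KO. *Adam2* and *Adam32* passed in WT, where they were at least 4.62-fold and 3.35-fold lower, and in KO the bounds were 2.84-fold and 2.39-fold. *Adam7* passed in KO, at least 4.24-fold lower, with a bound of 2.46-fold in WT. *Adam1a* was at 5.25 to 11.8 CPM in quiescent and 3.43 and 1.31 CPM in activated WT (log2 fold change -1.61, edgeR adjusted p = 0.034) and had -0.72 in KO (edgeR adjusted p = 0.258), but 63.7% of its exon bases are shared with *Gm42878* on the same strand. The calls of *Adam1a*, *Adam2*, *Adam7*, *Adam28* and *Adam32* were each lost without either activated library of their genotype (adjusted p up to 0.309), and that of *Adam32* also with both DESeq2 fits, no filter and the replicate block.

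Of the 18 MMPs tested, 2 were higher and 4 lower in WT and 4 were lower in KO, where 16.5% and 18.5% of all genes were lower and 9.65% were higher in WT. Whether MMPs differ in this from the other members was not tested. The gelatinase *Mmp2*, which cuts denatured and basement membrane collagen, was at 179, 169, 136 and 171 CPM in quiescent WT and at 44.3, 110, 229 and 218 CPM in quiescent KO. It was at 71.9 and 24.96 CPM in activated WT and at 49.8 and 45.2 CPM in activated KO. The states were apart in WT (log2 fold change -1.73, standard error 0.50, edgeR adjusted p = 0.0128) and overlapped in KO through quiescent replicate 1 (-1.66, standard error 0.50, edgeR adjusted p = 0.0146). The WT call was lost without WT activated replicate 2 (log2 fold change -1.13, edgeR adjusted p = 0.198) and with the robust fit (adjusted p = 0.0591). The KO call was lost without KO activated replicate 1 or 2 (-1.75 and -1.59, edgeR adjusted p = 0.0677 and 0.0954), with the robust fit (adjusted p = 0.0625) and with the replicate block (adjusted p = 0.07). The 4 quiescent KO libraries ranged as widely in summed fibroadipogenic progenitor markers, at 760, 913, 3536 and 1886 CPM in the same order. Of that list, *Col1a1* and *Col3a1* ranked these libraries as *Mmp2* did, and *Pdgfra*, *Dcn*, *Lum*, *Ly6a* and *Gsn* did not. The part of these cells in the level of *Mmp2* was not tested.

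*Mmp14*, the membrane-type enzyme that activates MMP2, was at 110 to 146 CPM in quiescent WT and at 161 and 22.3 CPM in activated WT. In KO it was at 78.2 to 175 CPM and then at 24.1 and 84.0 CPM. The activated libraries of each genotype lay far apart, and neither change passed (log2 fold changes -0.46 and -1.20, edgeR adjusted p = 0.502 and 0.0979). *Mmp9*, the other gelatinase, was at 0.483 to 3.41 CPM in quiescent and 6.37 and 0.876 CPM in activated WT, without a detectable change at this depth (log2 fold change 1.15, edgeR adjusted p = 0.271). *Mmp19*, a basement membrane protease, fell in both genotypes from 27.2 to 74.0 CPM in quiescent WT to 2.78 and 4.38 CPM and from 31.1 to 43.6 CPM in quiescent KO to 3.85 and 0.684 CPM (log2 fold changes -3.67 and -4.03, edgeR adjusted p = 2.89e-05 and 1.37e-05). Of its exon bases, 22.3% are shared with *Tmem198b*.

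Of the low MMPs, *Mmp23* passed in WT (4.49, 2.91, 3.73 and 2.36 CPM against 0.817 and 0 CPM, log2 fold change -2.65, edgeR adjusted p = 0.0475), and in KO its log2 fold change was -0.41 (edgeR adjusted p = 0.705). *Mmp27* had no count in activated cells and was at least 3.04-fold lower in WT, where it passed, and at least 2.04-fold lower in KO, where it did not. The membrane-type *Mmp16* and *Mmp24* passed in KO. *Mmp16* went from 0.944 to 4.51 CPM to 0.257 and 0.228 CPM, 1 count in each library (log2 fold change -3.17, edgeR adjusted p = 0.0276), and had -0.21 in WT (edgeR adjusted p = 0.847). *Mmp24* went from 0.614 to 4.51 CPM in quiescent KO to no count, at least 4.88-fold lower, and had 1.28 in WT (edgeR adjusted p = 0.336). These calls on few counts were not stable. Of 21 alternative settings, 13 ended the WT call of *Mmp27* (adjusted p up to 0.336), among them both DESeq2 fits, no filter and the replicate block, and 8 ended that of *Mmp23* (adjusted p up to 0.282), among them DESeq2's size factors in edgeR and leaving out either WT activated library. The KO calls of *Mmp16* and *Mmp24* were each lost in 3, without either KO activated library and without KO quiescent replicate 2 (adjusted p up to 0.186 and 0.126).

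A cluster of 9 MMP genes lies on chromosome 9 between 7272514 and 7699585 (GRCm38) and holds collagenases, stromelysins, matrilysin and macrophage elastase. The genes were low here, and 6 of the 9 (*Mmp1b*, *Mmp7*, *Mmp8*, *Mmp10*, *Mmp20* and *Mmp27*) had no count in any activated library. Inducible members of this cluster are classical targets of the transcription factor AP-1, and TGANTCA was searched as a broad form of its site. RefSeq promoter windows on GRCm38.p6, from 250 bases before to 50 bases after the start, were at hand for 53 of the 84 members. TGANTCA reads the same on both strands in all but its central base. It stood in 12 of the 58 windows of these members, against 7.81% of 32851 windows of all genes. These belonged to 12 of the 53 members, and to 7 of the 9 cluster genes. The match was TGAATCA in *Mmp20*, *Adam20* and *Adam25*, and TGAGTCA or TGACTCA in the other members. The 150 bases before the start are shown for the 4 tested cluster genes that hold the motif and for *Adam19*, which rose in culture, with the motif in capitals, each on the plus strand.
Mmp13, chr9:7272364-7272513: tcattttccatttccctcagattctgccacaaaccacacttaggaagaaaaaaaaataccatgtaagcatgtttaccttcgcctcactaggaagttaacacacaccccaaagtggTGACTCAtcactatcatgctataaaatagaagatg
Mmp12, chr9:7347224-7347373: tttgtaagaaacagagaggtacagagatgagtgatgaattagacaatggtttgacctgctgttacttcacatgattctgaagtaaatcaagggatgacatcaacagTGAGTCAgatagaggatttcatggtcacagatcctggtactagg
Mmp3, chr9:7445672-7445821: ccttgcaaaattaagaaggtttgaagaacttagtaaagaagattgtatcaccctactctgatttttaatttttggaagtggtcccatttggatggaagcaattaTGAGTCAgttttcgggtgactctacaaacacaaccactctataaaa
Mmp10, chr9:7502192-7502341: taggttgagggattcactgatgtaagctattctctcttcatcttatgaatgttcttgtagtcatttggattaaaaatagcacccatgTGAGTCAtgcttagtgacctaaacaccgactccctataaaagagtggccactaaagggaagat
Adam19, chr11:46055834-46055983: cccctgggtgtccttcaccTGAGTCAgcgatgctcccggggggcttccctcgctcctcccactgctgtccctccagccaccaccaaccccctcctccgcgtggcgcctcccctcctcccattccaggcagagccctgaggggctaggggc
The motif began 35 bases before the start in *Mmp13*, 44 in *Mmp12*, 46 in *Mmp3*, 63 in *Mmp10* and 131 in *Adam19*. None of the 5 stretches overlaps an annotated exon. Outside the cluster, *Adam1b*, *Adam20*, *Adam25* and *Adam29* also held TGANTCA, and they had no count in any activated library. The other motif searched, CAGCTG, stood in windows of 11 of the 53 members, *Adam19* among them, and of 0 of the 9 cluster genes, against 16.3% of all windows. A match is a description of the sequence, and binding was not measured.

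In the expression data, these 5 genes did not share one course. *Mmp3* (stromelysin-1) was at 2.40, 1.28, 0.833 and 0.0963 CPM in quiescent WT, at 25.3 and 0.876 CPM in activated WT (155 and 2 counts) and at 1.03 and 0.456 CPM in activated KO. One library, activated WT replicate 1, stood apart, and the rise in WT (log2 fold change 3.55, standard error 0.88, edgeR adjusted p = 0.00468) became -0.31 (edgeR adjusted p = 0.894) without it. *Mmp12*, the macrophage elastase, was at 0.284 to 1.67 CPM in quiescent and 6.21 and 2.63 CPM in activated WT (log2 fold change 2.36, edgeR adjusted p = 0.0419), and at 0.514 and 0.456 CPM in activated KO (-1.45, edgeR adjusted p = 0.296). The WT call of *Mmp12* was lost in 6 of 21 settings, with the replicate block, without either WT activated library and without WT quiescent replicate 1, 2 or 4 (log2 fold changes 1.65 to 2.88 over the settings, adjusted p up to 0.483). *Mmp13*, a collagenase, was at 0.209, 1.63, 10.7 and 0.915 CPM in quiescent WT and overlapped between the states, and *Mmp10* was at 0 to 2.32 CPM. *Adam19*, described above, was the one gene of the 5 with a higher level in each activated library.

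The next comparison asked how loss of *Cxcr4* bears on these genes in freshly sorted cells. None of the 72 tested genes passed in either direction, where 0.00776% of all genes passed in each, and DESeq2 on all libraries also called 0 (against 0.00644% higher and 0.0043% lower). At an unadjusted p under 0.05, 1 member was lower in KO (1.39%, against 0.648% of all genes) and 0 were higher (against 1.09%), and at a p under 0.01 there were 0 (against 0.0892% lower and 0.21% higher). This was *Mmp13*, whose difference (log2 fold change -2.07, standard error 0.89, edgeR adjusted p = 1) had WT replicate 3 at 10.7 CPM and the other 7 libraries at 0.209 to 1.63 CPM. *Adam30* and *Adamts5*, named for this after their values were seen, were lower in each KO than in each WT library (2.78% of members, against 0.827% of all genes, with 0 members higher against 0.869%) with unadjusted p = 0.168 and 0.269 in edgeR. The abundant genes differed little, with log2 fold changes of -0.28 (standard error 0.33) for *Adamts1*, 0.20 (0.40) for *Adamts4*, -0.09 (0.23) for *Timp2*, 0.14 (0.26) for *Timp3*, -0.13 (0.37) for *Mmp2* and -0.04 (0.42) for *Mmp14*. Their WT and KO libraries overlapped.

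In activated cells the same comparison rested on 2 libraries a genotype. No member passed (against 0.031% of all genes higher and 0.0194% lower). At an unadjusted p under 0.05, 10 members were lower in KO (13.9%, against 4.11% of all genes) and 1 was higher (1.39%, against 4.26%). The groups did not overlap for 10 members that were lower (13.9%, against 9.5%) and 7 that were higher (9.72%, against 15.2%). At an unadjusted p under 0.01, 5 members were lower (6.94%, against 1.29%) and 1 was higher (1.39%, against 1.22%). DESeq2 on all libraries called 0 higher (against 0.366%).

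*Adamts4* came nearest to the threshold, 14.7-fold lower in KO (log2 fold change -3.88, standard error 0.74, edgeR adjusted p = 0.0663). *Timp1* was next, 6.49-fold lower (-2.7, standard error 0.62, edgeR adjusted p = 0.133). The study, which used DESeq2, lists *Adamts4* among the genes that differ in activated cells, as lower in KO, and lists no other member there. *Adamts1* had -1.65 (standard error 0.49, edgeR adjusted p = 0.275) and *Mmp3* had -4.19 (standard error 1.30, edgeR adjusted p = 0.306), and for both the activated KO libraries overlapped with WT replicate 2. *Adam19* had -1.08 (standard error 0.37, edgeR adjusted p = 0.381) with WT replicates that were close to each other, and both were above both KO libraries. *Mmp17*, a glycolipid-anchored membrane-type MMP on chromosome 5, was the gene that was higher in KO, at 16.2 and 9.12 CPM (63 and 40 counts) against 4.90 and 0 CPM (30 and 0 counts) in WT (log2 fold change 2.11, standard error 0.72, edgeR adjusted p = 0.375). Quiescent levels of *Mmp17* were 5.09 to 8.51 CPM in WT and 4.25 to 10.4 CPM in KO, a range that overlaps with both activated groups.

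**Figure D4:**
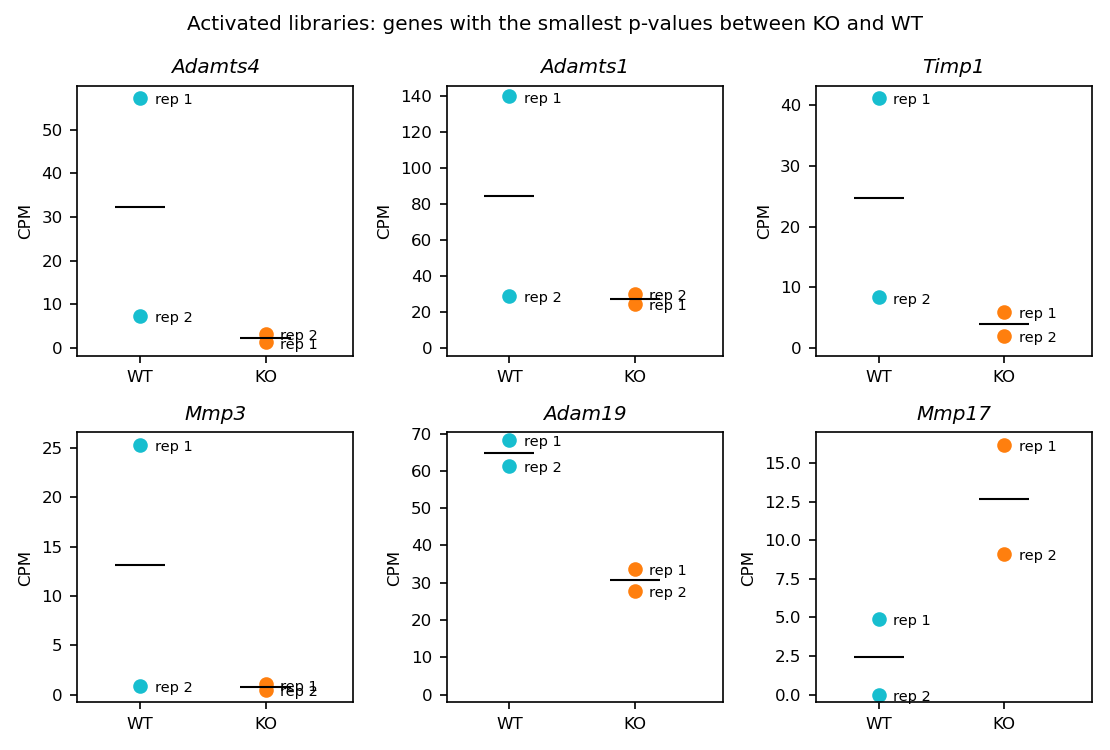
CPM in the activated libraries (vertical axes from 0) of the 6 genes with the smallest p-values between KO and WT, each dot 1 library labelled by replicate and each line the mean of 2. For *Adamts4*, *Adamts1*, *Timp1* and *Mmp3* the WT mean lies far above WT replicate 2, while the 2 WT values of *Adam19* are 68.3 and 61.3 CPM.

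Activated WT replicate 1 set the size of most of these differences. Without it the log2 fold changes were -1.81 for *Adamts4*, -1.17 for *Timp1*, -0.18 for *Adamts1*, -0.34 for *Mmp3* and -1.09 for *Adam19*, none with an adjusted p under 0.974 in edgeR. Without WT replicate 2, with the lone WT library assumed to vary like the other groups, *Adamts4*, *Adamts9*, *Mmp3*, *Adamts1* and *Timp1* were called lower, among 211 genes called of 33060 tested. *Adam19* stayed between -1.24 and -1.0 over the fits that left out 1 library each. DESeq2 on all 12 libraries called 3 members lower, *Adamts4*, *Adamts1* and *Timp1*, of 54 with an adjusted p (5.56%, against 0.548% of all genes with one). Among the activated libraries, WT replicate 1 also had the highest summed markers of endothelium, fibroadipogenic progenitors, tenocytes and smooth muscle with pericytes, and the lowest of blood cells and muscle fibre. Those of endothelium were at 627 CPM, against 88.0 CPM in WT replicate 2 and 89.1 and 293 CPM in KO. Those of fibroadipogenic progenitors were at 787 CPM, against 326 CPM and 381 and 646 CPM. In this list *Col1a1* was at 558 CPM in WT replicate 1, against 84.5 CPM in WT replicate 2 and 88.4 and 224 CPM in KO. By contrast, *Pdgfra*, *Dcn*, *Lum* and *Gsn* were each lowest in WT replicate 1, and *Col3a1* and *Ly6a* lay within the range of the others. Summed tenocyte markers were at 288 CPM, against 110 CPM and 83.5 and 101 CPM. Those of smooth muscle and pericytes were at 318 CPM, against 222 CPM and 169 and 262 CPM. Blood cell markers were at 18.95 CPM, against 31.1 CPM and 27.5 and 45.6 CPM, and muscle fibre markers at 5426 CPM, against 12030 CPM and 7252 and 13430 CPM. The part of these cells in the difference between WT and KO was not tested.

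The difference between the genotype effects in the 2 states, tested as an interaction, passed for 0 members and 0 of all genes. At an unadjusted p under 0.05 it was lower in activated cells for 8 members (11.1%, against 3.39%) and higher for 1 (1.39%, against 3.2%), and at a p under 0.01 for 3 and 0 (against 0.955% and 0.722%). The smallest adjusted p was that of *Adamts4* (-4.08 on the log2 scale, standard error 0.84, edgeR adjusted p = 0.177), followed in size of p by *Timp1* (-2.82, standard error 0.72, edgeR adjusted p = 0.331). DESeq2 on all libraries called *Adamts4* and *Timp1* lower (3.7% of members, against 0.176% of all genes) and 0 higher (against 0.107%). Members that passed on activation in 1 genotype and not in the other are thus not shown by edgeR to respond differently.

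Activators and regulators of these proteases, a list of 22 genes, went mainly down in culture as well. In WT 12 were lower and 1 was higher, and in KO 13 were lower and 1 was higher. Of all genes tested, 16.5% and 18.5% were lower and 9.65% and 11.1% higher in WT and KO. Between KO and WT 0 passed in either state. *Plau*, the urokinase-type activator of plasminogen, went from 258, 292, 309 and 397 CPM to 56.5 and 34.6 CPM in WT (-2.77, edgeR adjusted p = 4.45e-05) and had a log2 fold change of -2.98 in KO (edgeR adjusted p = 2.06e-05). *Plat*, the tissue-type activator, had -4.07 and -4.80, and *Reck*, a membrane-anchored inhibitor of MMPs, had -2.16 and -2.28, and all 4 values passed.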

How the data were processed

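RNA-seq was performed on sorted Pax7-ZsGreen+ satellite cells, with polyA RNA libraries made by a NEBNext Ultra kit. The authors trimmed reads with Trim Galore 0.6.0, mapped them to GRCm38.p6 (mm10) with STAR 2.7.2a and counted them on GENCODE M25 genes with Rsubread. The deposited counts are whole reads per gene and library without normalization. FPKM, as deposited by the authors, come as 1 value for each group. How multi-mapping reads and strand were treated is not given in the sources used here. Sample groups come from the labels.

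Counts were filtered with filterByExpr, scaled by TMM and tested in R 4.3.3 with edgeR 4.0.16 in 1 quasi-likelihood fit of all 4 groups, checked on simulated counts. Between KO and WT in activated cells, the check recovered 1% of true log2 fold changes of 1 and 47% of those of 2. In quiescent cells it recovered 15% and 83%, and on activation in WT 7% and 59%. It changed 100 genes at each size, drawn from genes above a minimum mean count, and scored them by adjusted p alone. In the data 6750 genes were called on activation in WT, so the last 2 shares do not carry over to that comparison. None of the shares applies to genes with few counts. A gene that did not pass is not shown to be unchanged. Genes were called at an adjusted p under 0.05, a log2 fold change beyond 1 and a mean normalized count over 10. Quiescent libraries held 12775593 to 23717013 counts and activated ones 3172164 to 5427280, and a group without counts was set to a floor of 3 counts over the group, which covers counting error only. Standard errors were derived from the F statistic of each fold change. Alternatives were DESeq2 1.42.0, DESeq2's size factors, other filters, a robust fit, omission of single libraries and a block for the replicate number.

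The members, gene lists and tests were chosen with earlier results of these data known. Genes were named where they are TIMPs, gelatinases, *Mmp14*, *Adam10*, *Adam17*, *Adam12* or *Adamts4*, had p under 0.01 between KO and WT, passed on activation in both genotypes with 1 of the 12 largest mean changes in a direction, passed in 1 genotype, or ranked in the top 10 FPKM of a group. Coordinates are those of GENCODE M21 on GRCm38. Protein sequences, and a split of ADAMs by their zinc-binding motif, were not used here. Some genes are not reported here.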

Additional observations from a re-analysis of the deposited data

Results flagged for a closer look

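Among 38 named genes, 76 groups of 4 quiescent libraries were checked for a single library far from the other 3, and 3 such libraries were found, where chance gives about 1 in 20 groups. *Adam19* was at 20.01 CPM in quiescent WT replicate 2 and at 13.7 to 14.7 CPM in the other 3 libraries. *Mmp24* was at 4.51 CPM in quiescent KO replicate 2 and at 0.614 to 1.16 CPM in the others. *Timp1* was at 30.0 CPM in quiescent KO replicate 3 and at 13.3 to 15.3 CPM in the others.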

How the results depend on the processing

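The count of members higher in activated WT was 6, and 3 to 6 when 1 library was left out, with 3 without WT quiescent replicate 1 (*Mmp3*, *Adamts14* and *Adam19*) and without WT activated replicate 1 (*Adam12*, *Adamts14* and *Adam19*). The count lower in WT was 28 (16 to 29), and in KO 28 (18 to 33). The count higher in KO was 2 (2 to 3), and 1 with the robust fit. Between KO and WT in activated cells, where 0 members passed, 1 was higher and 4 were lower without a filter on low counts, 3 were lower with DESeq2 on all 12 libraries, 1 was lower with DESeq2 on the compared groups and 0 to 5 were lower when 1 library was left out. The difference between states gave 2 lower without a filter, 2 with DESeq2 on all 12 libraries and 0 to 3 when 1 library was left out. Without WT activated replicate 1, *Adamts1* turned to 0.10 and *Mmp3* to 0.00 in the difference between states (log2, from -2.16 and -4.84 at the other end of the range with 1 library left out), and *Mmp3* turned to -0.31 on activation in WT (up to 4.52). The cause was not tested. No reversal occurred in the other results for the 38 named genes, of which 1167 values kept direction and call, 96 lost the call and 20 gained it.

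Whether replicate numbers pair the samples could not be decided. The deviations of quiescent libraries with the same number had correlations of 0.24, 0.16, -0.27 and 0.59, and those with unlike numbers -0.48 to 0.32. In activated cells the values were -0.07 and -0.07, which must be equal with 2 libraries a group. With the replicate number as a block, 5 members were higher and 28 lower in WT and 3 higher and 28 lower in KO on activation, and 0 passed between KO and WT. At 3172164 to 5427280 counts, activated libraries limit what can be said of genes under about 1 CPM.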
